A study of Drosophila melanogaster with 38 samples.

Results

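Small nucleolar RNA (snoRNA) genes are short noncoding genes, and this account describes where peaks of the dosage compensation protein MSL2 lay around them and around the genes that host them. The members were all genes with the biotype snoRNA in the Ensembl annotation of Drosophila melanogaster on chromosomes 2, 3, 4 and X, which gave 269 genes of 18164 genes of all kinds. Of these, 247 lay wholly inside another gene on the same strand (hosted) and 22 did not (other snoRNA genes). The hosted genes fell into 92 distinct host genes, 55 with 1 snoRNA gene and 37 with more. A gene was scored when an MSL2 peak reached to within 1 kb of one of its transcription start sites (TSS), on either side. By chromosome arm there were 41 members on 2L, 96 on 2R, 52 on 3L, 48 on 3R, 1 on 4 and 31 on X.

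The series holds 38 chromatin immunoprecipitation (ChIP) libraries from larvae of the third instar (19 female and 19 male libraries, made up of 26 immunoprecipitates and 12 inputs), with 1 library in each group. MSL2 was pulled down by anti-FLAG in 2 libraries, 1 of each sex, from larvae with the msl-2 alleles msl-2227 and msl-2km that also carried tub-Gal4 and UAS-msl-2::3Flag, so the tagged protein came from a transgene driven by tub-Gal4 in an msl-2 mutant background. Larvae of the genotype msl-2227/km / CyO-GFP, with no transgene, went through the same anti-FLAG pulldown. Histone and MLE libraries came from White-eyed (w1118) Oregon-R larvae, and H3 and H4K16ac also from larvae with the msl-2-delta-7 allele over msl-2-delta-10 and from msl-2-delta-7/10 / CyO-GFP larvae. The data described here are 3 lists of MSL2 peaks for the series as a whole: 159 high-affinity sites (HAS, the main binding sites of the MSL complex), of which 135 lay on X and 24 on autosomes, 680 other peaks on X and 1669 other autosomal peaks on the arms used. The lists name no library and rank no peak, so the sexes and genotypes could not be compared, and the depth behind a peak is unknown.

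snoRNAs guide the chemical modification of other RNAs, above all ribosomal RNA. Box C/D snoRNAs direct methylation of the ribose (names with Me), box H/ACA snoRNAs direct the change of uridine to pseudouridine (names with Psi), and scaRNAs act likewise on spliceosomal RNAs in Cajal bodies. Most fly snoRNAs are cut out of the introns of a host transcript, so the host's promoter drives them. Many hosts encode ribosomal proteins or other parts of the translation machinery, while the Uhg genes are noncoding hosts whose spliced exons have no known protein product. MSL2 is made in males and belongs to the MSL complex, through which the single male X is transcribed at a higher rate.

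The following members are printed because a peak overlapped them, lay close to them at an HAS, stood beside a snoRNA gene without a host, or, for Psi18S-1275, lay close to them at a host promoter. Me28S-U3344a, 1500 bp from the HAS near Me28S-U3344b, is shown beside that gene. scaRNA:MeU2-C28, 873 bp from the same HAS, is not printed. Sequences are from the RefSeq dm6 genome, on the strand of the gene, 5′ to 3′. Capitals mark the last ACA in box H/ACA genes (Psi), and the box C word TGATGA, where found, and the last box D word CTGA in the others. The name of snoRNA:M gives no kind and TGATGA was not found in it, so its CTGA is a match of letters only. Its gene overlaps that of Me28S-G980.
snoRNA:Psi18S-531 (chrX:763083-763234, minus strand, inside lncRNA:CR42491): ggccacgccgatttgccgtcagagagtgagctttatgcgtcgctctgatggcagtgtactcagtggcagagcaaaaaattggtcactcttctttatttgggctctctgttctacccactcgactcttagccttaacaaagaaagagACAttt
snoRNA:M (chrX:1482492-1482590, minus strand, inside sta): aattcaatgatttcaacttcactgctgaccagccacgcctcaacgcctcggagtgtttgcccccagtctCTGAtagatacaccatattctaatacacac
snoRNA:Me28S-G980 (chrX:1482559-1482629, minus strand, inside sta): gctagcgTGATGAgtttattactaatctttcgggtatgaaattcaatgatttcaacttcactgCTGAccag
snoRNA:Me28S-U3344b (chrX:21050898-21050978, minus strand, inside Stt3A): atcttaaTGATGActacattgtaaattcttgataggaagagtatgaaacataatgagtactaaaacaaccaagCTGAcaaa
snoRNA:Me28S-U3344a (chrX:21052283-21052361, minus strand, inside Stt3A): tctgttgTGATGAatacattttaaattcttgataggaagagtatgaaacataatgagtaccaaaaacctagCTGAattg
snoRNA:Psi18S-301 (chr3R:20574906-20575043, plus strand, no host): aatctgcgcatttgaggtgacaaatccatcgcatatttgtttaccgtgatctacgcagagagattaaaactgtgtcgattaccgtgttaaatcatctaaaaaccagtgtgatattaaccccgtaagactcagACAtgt
snoRNA:Psi18S-1275 (chr3R:9778398-9778537, plus strand, inside RpS29): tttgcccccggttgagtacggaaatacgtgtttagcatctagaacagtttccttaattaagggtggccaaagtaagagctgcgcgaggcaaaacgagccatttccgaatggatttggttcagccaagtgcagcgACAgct
In the 3 box H/ACA genes shown, the last ACA stood 3 bases before the annotated end. Over all members, TGATGA was found in 66 of 91 genes named as box C/D (72.5%) against 4 of 114 named as box H/ACA (3.51%), and CTGA in 88 of 91 (96.7%) against 48 of 114 (42.1%), so the letters went with the names.

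The promoters of 6 ribosomal protein hosts with a peak and 4 without are printed next, all chosen because they hold the same kind of start. Each line holds 29 bases centred on the canonical TSS, in the direction of transcription, and capitals mark CTTTT or CTTTC, the pyrimidine-rich start typical of genes for the translation machinery. That start was found in 18 of 28 ribosomal protein hosts, and hosts without it are not shown. A host marked peak had a peak within 1 kb of a TSS, which at RpS6 stood 419 bp away.
RpL13A (chr3R:5624460-5624488, plus strand, peak): tcaacgcaacttccgccttCTTTCcgtgc
RpL28 (chr3L:3222944-3222972, minus strand, peak): gtcgggctgccatatttCTTTCcttcttg
RpL4 (chr3R:27922807-27922835, plus strand, peak): gccatttccggcagctctCTTTCTTTCtt
RpL22 (chrX:765116-765144, minus strand, peak): cgtcgcttccgccttctgttCTTTTtcct
RpS5a (chrX:17148250-17148278, minus strand, peak): acactgccgtaacatgttCTTTTtcaggc
RpS6 (chrX:7901317-7901345, minus strand, peak): acttcctcctatcggtCTTTTtcaaccct
RpL14 (chr3L:8600992-8601020, plus strand, no peak): tgtcaaaaaagttCTTTCcttctCTTTCt
RpL3 (chr3R:11221880-11221908, plus strand, no peak): ggaagtcggaatcgtttCTTTTccgtttt
RpL10Ab (chr3L:11822837-11822865, plus strand, no peak): taaaaaccgattttcacttcCTTTCtaaa
RpS7 (chr3R:30208928-30208956, minus strand, no peak): cgtggctcgacttcCTTTCctgtcaaaat

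An MSL2 peak lay within 1 kb of the TSS of 40 of the 269 snoRNA genes, or 14.9% (95% Wilson interval 11.1 to 19.6%), against 14.6% of all genes. At this distance the share at snoRNA genes was near the background, but this depended on the distance: within 500 bp it was 3.72% (10 of 269), against 12.3% of all genes, and within 2 kb it was 29.7% (80 of 269), against 17.6%. Of the 3261 genes of biotype ncRNA, 9.51% had a peak within 1 kb. Hosted snoRNA genes were scored in 39 of 247 cases (15.8%, 11.8 to 20.9%) and other snoRNA genes in 1 of 22 (4.55%, 0.807 to 21.8%), and these intervals overlap. Wilson intervals here cover counting error only and treat genes as independent, whereas neighbouring snoRNA genes share hosts and peaks: the 40 scored genes had 28 distinct peaks and the 39 hosted ones among them 24 distinct hosts.

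On X, 8 of 31 snoRNA genes were scored (25.8%, 13.7 to 43.2%), against 27.9% of X genes. On the autosomes 32 of 238 were scored (13.4%, 9.69 to 18.4%), against 12.2% of autosomal genes. Within each group of chromosomes the share was again near its background. The autosomal count was made up of 3 of 41 genes on 2L, 13 of 96 on 2R, 8 of 52 on 3L, 8 of 48 on 3R and 0 of 1 on chromosome 4. By the kind given in the name, 16 of 91 box C/D genes (17.6%, 11.1 to 26.7%), 18 of 114 box H/ACA genes (15.8%, 10.2 to 23.6%) and 1 of 16 scaRNA genes (6.25%, 1.11 to 28.3%) were scored. The share over all genes, 14.6%, lay within each of these intervals. The remaining 48 genes, whose names give no kind, held 5 scored members.

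Host genes gave a different count. A peak lay within 1 kb of a TSS of 41 of the 92 hosts (44.6%, 34.8 to 54.7%). Of the 82 protein-coding hosts 40 were scored (48.8%, 38.3 to 59.4%), against 16.2% of protein-coding genes. Genes with several start sites have more chances to be scored, so the coding hosts were also divided by their annotated TSS, a division chosen after the counts were seen. With 1 TSS, 14 of 38 coding hosts were scored (36.8%, 23.4 to 52.7%), against 11.4% of coding genes. With 2 or more, 26 of 44 were scored (59.1%, 44.4 to 72.3%), against 29.6%. Hosts on X were scored in 7 of 10 cases (70.0%, 39.7 to 89.2%), against 27.9% of X genes, and hosts on autosomes in 34 of 82 (41.5%, 31.4 to 52.3%), against 12.2% of autosomal genes. The share of hosts lay above the share set beside it in each of these divisions. For X and the autosomes that share covers genes of all kinds, whereas most hosts are protein-coding. The 7 hosts scored on X include both RpL22 and lncRNA:CR42491, which lies inside it. Expression level and the class of the gene were not matched, and their part in the difference was not tested.

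**Figure D1:**
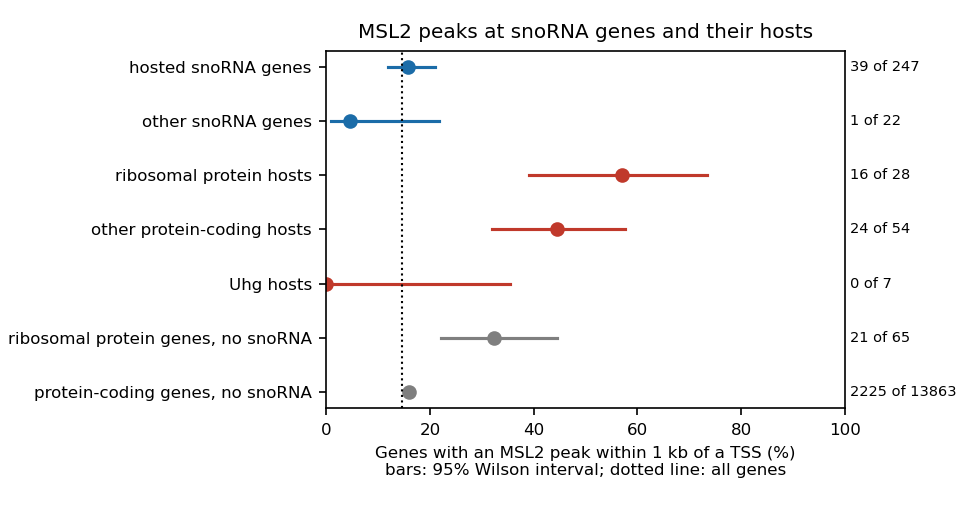
Percent of genes with an MSL2 peak within 1 kb of a TSS (horizontal axis) for each group of genes (vertical axis), with 95% Wilson intervals as bars, the counts at the right, and the share of all genes (14.6%) as a dotted line. Hosted snoRNA genes (15.8%) sit on the line, ribosomal protein hosts (57.1%) and other protein-coding hosts (44.4%) lie to its right, and none of the 7 Uhg hosts was scored. Groups marked no snoRNA are genes that were not taken as a host.

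Ribosomal protein genes made up 28 of the hosts, and 16 of these had a TSS peak (57.1%, 39.1 to 73.5%), against 16.2% of protein-coding genes. Ribosomal protein genes not taken as a host had a TSS peak in 21 of 65 cases (32.3%, 22.2 to 44.4%). These include RpL23A, which also holds the 4 snoRNA genes assigned to the shorter Uhg7. On the autosomes the counts were 11 of 22 for the hosts and 15 of 56 for the others, against 12.2% of autosomal genes. On X they were 5 of 6 and 6 of 9, against 27.9% of X genes. Both sets were taken by symbol with any suffix allowed, so paralogues were not separated. The difference between the sets was not tested. The other 54 protein-coding hosts had a TSS peak in 24 cases (44.4%, 32.0 to 57.6%), with an interval that overlaps that of ribosomal protein hosts. None of the 7 Uhg hosts had a peak within 1 kb (0%, 0 to 35.4%), against 9.51% of genes of biotype ncRNA. None of their 48 snoRNA genes, which share those 7 hosts, was scored (0 to 7.41%), against 14.6% of all genes. The nearest peak stood 1324 bp from the TSS of Uhg7, 2094 bp from Uhg4, 2768 bp from Uhg5, 8799 bp from Uhg3, 15147 bp from Uhg1, 16929 bp from Uhg2 and 19730 bp from Uhg8.

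In the 41 hosts with a TSS peak, the peak nearest a TSS was examined. Its closeness follows in part from this choice, since only hosts with a peak within 1 kb are included. The peak nearest a host TSS had its midpoint within 200 bp of that TSS in 27 of 41 hosts, and the median distance without regard to side was 74 bp. In 25 of 41 hosts the peak spanned a TSS of the host, and in 33 of 41 (80.5%, 66.0 to 89.8%) no other gene's TSS was closer to the midpoint. In 27 of 41, however, the TSS of another gene also lay within 1 kb of the peak. At RpS20, a protein of the small ribosomal subunit, the peak midpoint lay 285 bp upstream of the host TSS and 48 bp from that of CG17271. At dmt, CG1142, Prp39 and SC35, further examples, the nearest TSS belonged to trbd, snRNA:7SKa, wdn and eRF3. The median width of the host peaks was 251 bp, close to the medians of the autosomal list (234 bp) and the other X list (249.5 bp), while that of the HAS list was 427 bp.

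Scored snoRNA genes lay close to the start of their host. A host with a TSS peak held 121 of the 247 hosted snoRNA genes (49.0%), and 37 of these were scored at their own TSS (30.6%, 23.1 to 39.3%). Where the host had no TSS peak, 2 of 126 were scored (1.59%, 0.436 to 5.6%). In hosts with a peak, 16 of 19 snoRNA genes under 1 kb from the canonical TSS of the host were scored, against 15 of 35 between 1 and 2 kb, 3 of 30 between 2 and 4 kb and 3 of 37 beyond 4 kb. The scored members of such hosts lay a median of 1050 bp from the host TSS (37 genes) and the unscored a median of 3136.5 bp (84 genes). This order follows in part from the scoring rule, since a peak at the host TSS can reach only nearby snoRNA genes.

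**Figure D2:**
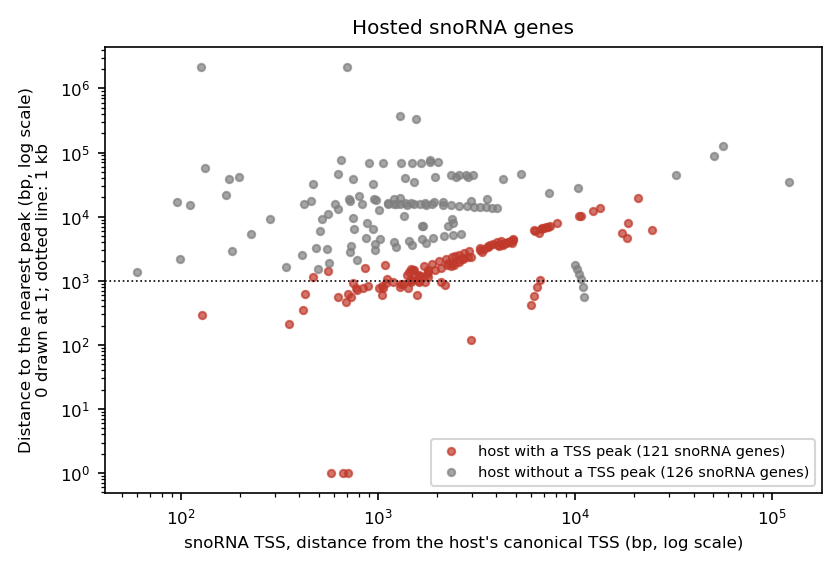
Each point is a hosted snoRNA gene, with its distance from the canonical TSS of its host (horizontal, bp, log scale) and its distance to the nearest MSL2 peak (vertical, bp, log scale, with 0 drawn at 1 and the 1 kb limit dotted). In red, the 121 genes in hosts with a TSS peak form a diagonal along which both distances grow together, with 37 at or under the limit. In grey, 2 of the 126 genes in hosts without a TSS peak fall under it.

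The 41 pairs of a hosted snoRNA gene and a peak within 1 kb of it show the same arrangement. In 31 pairs (75.6%, 60.7 to 86.2%) the peak also lay within 1 kb of a host TSS, in 27 its midpoint was closer to the host TSS than to the snoRNA TSS, and in 30 it lay upstream of the snoRNA gene. A peak overlapped the snoRNA gene itself in 3 of the 269 members (1.12%, 0.38 to 3.23%), all on X. The 28 peaks comprised 2 HAS, 4 other X peaks and 22 autosomal peaks, with a median width of 284.5 bp.

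Among autosomal ribosomal protein hosts, RpS29 carried the closest arrangement. Its peak, chr3R:9777994-9778183, had its midpoint 8.5 bp from the host TSS, and the gene of Psi18S-1275, printed above, began 215 bp from the edge of the peak. The 192 bp peak of RpL13A was centred 19.5 bp from the host TSS and reached to 628 bp from Me28S-U2134b and 817 bp from Me28S-U2134a, methylation guides whose names give neighbouring copies for the same site. At RpL28 the peak was centred 35 bp from the host TSS. Of its 5 snoRNA genes the first 3, Or-CD11a, Or-CD11b and Or-CD11c, stood 355, 567 and 780 bp from the peak edge and were scored. These are orphan box C/D copies of 67 bases, in which b and c shared 95.5% of bases, a and b 82.1% and a and c 80.6%.

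RpS4 held 3 copies of a pseudouridylation guide. Psi28S-3327a and Psi28S-3327b lay 776 and 953 bp from the peak at the RpS4 TSS, whose midpoint was 30 bp from it. Psi28S-3327c lay 995 bp from the edge of another peak, downstream of RpS4, with its midpoint 67 bp from the TSS of Syx13, a gene for a syntaxin. Over their 140 bases the copies a and b were 79.3% identical, b and c 70.7% and a and c 63.6%. RpL4 (Or-aca3, 935 bp from the peak edge) and RpS20 (Psi18S-1295 at 616 bp and Psi28S-2562 at 932 bp) were further ribosomal protein hosts on chromosome 3 with scored snoRNA genes. On 2L, Me18S-C1831 in RpL27A had a peak on each side. The upstream one lay at 465 bp and was centred 37 bp from the RpL27A TSS, and the downstream one lay at 828 bp and was centred 70.5 bp from the TSS of Gs1l.

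The peak of RpL13A illustrates a promoter peak with no GA repeat. It is shown whole on the plus strand, 192 bases from chr3R:5624359-5624550. No stretch of it matched GAGAGAGA or its reverse complement with up to 1 mismatch, so it is in lower case throughout.
RpL13A peak: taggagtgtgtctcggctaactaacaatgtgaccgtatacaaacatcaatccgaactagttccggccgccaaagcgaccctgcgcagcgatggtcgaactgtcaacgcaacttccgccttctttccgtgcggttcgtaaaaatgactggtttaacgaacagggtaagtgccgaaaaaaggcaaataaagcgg

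On chromosome arm 2R the scored snoRNA genes in ribosomal protein hosts included Psi28S-2444 in RpL11 (725 bp), with a peak centred 41.5 bp from the host TSS, and Me28S-G2173 and Psi28S-1175a in RpS16 (605 and 895 bp), with a peak centred 28.5 bp from it. Hosts outside the ribosome gave a like picture. The peak midpoint lay 45 bp from the nearest TSS of eEF1alpha1, the elongation factor that brings aminoacyl-tRNA to the ribosome, and its edge 951 bp from Me28S-A1322. At pAbp, the poly(A)-binding protein, it lay 474 bp from the host TSS, with Psi18S-1347a at 763 bp and Psi18S-1347b at 961 bp. At Dek, a chromatin protein, Dek-a stood 782 bp from a peak centred 155.5 bp from the host TSS. Arf1, a small GTPase of vesicle traffic, held Me28S-G764 at 951 bp, and CG10576 held Psi28S-1837a at 899 bp.

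In lola and Nop60B the scored peak stood away from the host's own start. In lola, a gene for a large family of zinc finger transcription factors, lola-b, lola-c and lola-d lay 788, 573 and 423 bp downstream of the edge of a 255 bp peak with its midpoint 2788 bp from the nearest lola TSS, in addition to the peaks at lola start sites. In Nop60B, which encodes the pseudouridine synthase of box H/ACA particles and had no TSS peak, Or-CD9a and Or-CD9b at the far end of the gene lay 795 and 558 bp from the edge of a peak whose midpoint was 7.5 bp from the TSS of the next gene, ocm. These were the 2 members scored without a peak at their host's TSS.

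**Figure D3:**
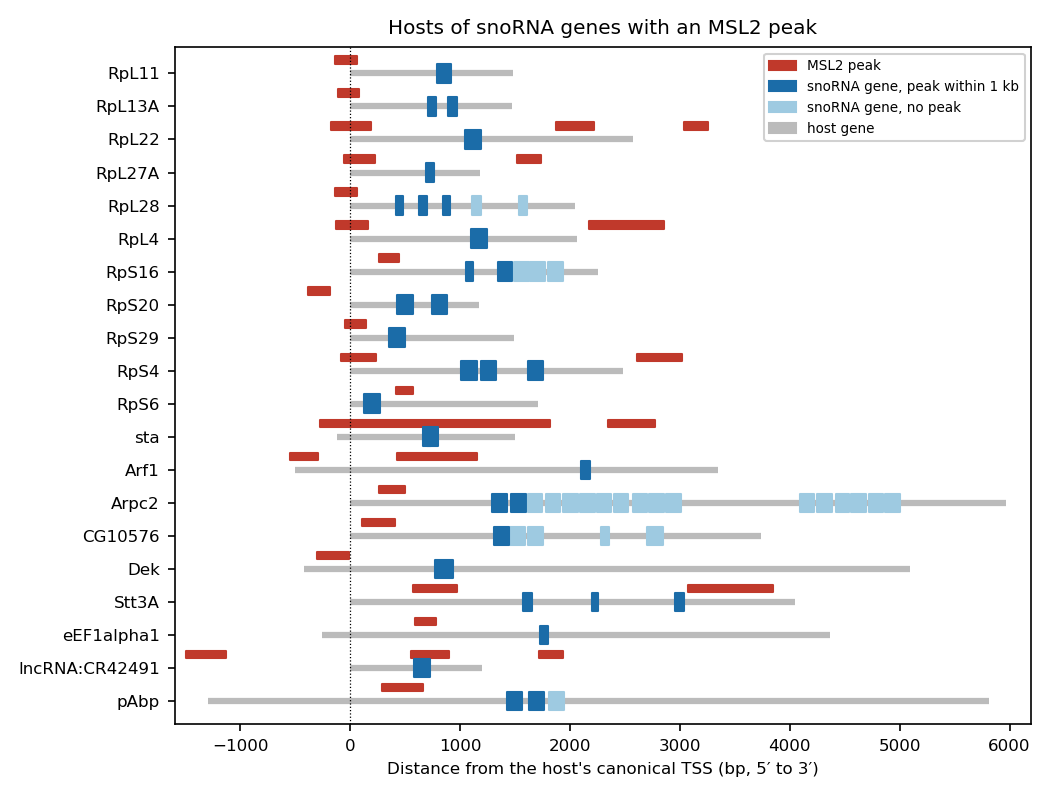
Maps of 20 hosts of scored snoRNA genes, ribosomal protein genes first, aligned at the canonical TSS of each host (horizontal axis, bp, in the direction of transcription; lola and Nop60B are left out because their scored snoRNA genes lie further away). MSL2 peaks (red) cluster near 0, and the snoRNA genes in reach of them (dark blue) are often the first ones in the host. Examples are RpL28, Arpc2 and CG10576, where later ones (light blue) are unscored. In Stt3A and RpS4 the last snoRNA gene is scored too, through a peak centred 3462 and 2770 bp from the nearest host TSS.

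Hosts with many snoRNA genes contributed few scored members. Arpc2, a subunit of the Arp2/3 actin nucleation complex, held 17, the most of any host. The midpoint of its 231 bp peak lay 347 bp from the host TSS, and, measured from the peak edge, only the first snoRNA genes, Psi18S-525a at 796 bp and Psi18S-640a at 971 bp, were scored. dom, the ATPase of the Domino chromatin remodeller, held 15 with the first 1788 bp from the TSS, RpS5a held 14 with the first 1505 bp away, and kra, a translation regulator, held 8 with the first 2359 bp away. All 3 had a peak spanning their TSS and 0 scored snoRNA genes. Uhg1 with 16 and Uhg5 with 11 had no TSS peak. Of the hosts with 7 snoRNA genes each, Hrb98DE, RpS7 and Uhg4 had no TSS peak and no scored member, and Nop60B is described above.

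**Figure D4:**
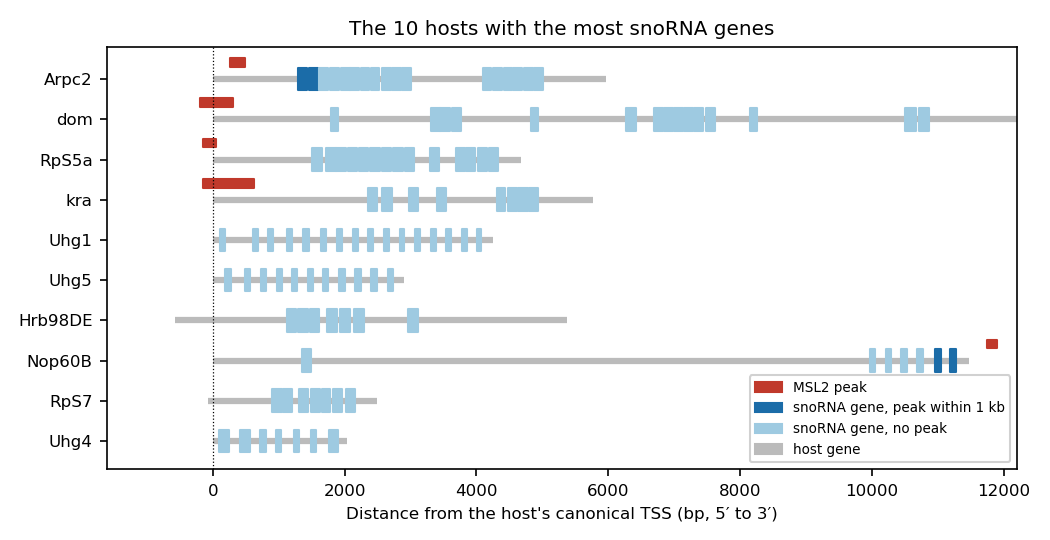
The 10 hosts with the most snoRNA genes, aligned at the canonical TSS (horizontal axis, bp, in the direction of transcription; dom is clipped at the right edge), with the hosts that have a TSS peak at the top. Arpc2, dom, RpS5a and kra carry a peak (red) at the start and 2, 0, 0 and 0 scored snoRNA genes (dark blue). The Uhg genes and RpS7 carry snoRNA genes (light blue) from close to the start but no peak.

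Each of the 8 scored members on X lay within 1 kb of at least 1 of 6 peaks. Psi18S-531 was covered by a 345 bp peak, chrX:762916-763260, inside lncRNA:CR42491, which itself lies within RpL22. Its midpoint was 722 bp from the lncRNA TSS and 146 bp from the snoRNA TSS. Psi28S-2179 in RpL22 lay 826 bp from that peak and 859 bp from a second one, which was centred 6 bp from the RpL22 TSS. Or-aca2 in RpS6 lay 291 bp from a 150 bp peak further into the gene, centred 464.5 bp from the TSS of CR33222.

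The other 5 were the X members with an HAS within 5 kb. A 2099 bp HAS, chrX:1481471-1483569, covered the genes of snoRNA:M and Me28S-G980 and the whole of their host sta, which encodes a protein of the small ribosomal subunit. In Stt3A, the catalytic subunit of oligosaccharyltransferase, a 773 bp HAS at chrX:21050089-21050861 lay in the distal part of the gene, with its midpoint 3462 bp from the host TSS. Its edge was 117 bp from Me28S-U3344b, 873 bp from scaRNA:MeU2-C28 and 1500 bp from Me28S-U3344a. Me28S-U3344a was scored through another peak, whose edge lay 609 bp from it and whose midpoint lay 767.5 bp from the host TSS. The remaining 26 X members lay 6645 to 148119 bp from an HAS. The median over all 31 was 8792 bp, against 36719 bp over all X genes, but 14 of the 31 lie in RpS5a and share 1 HAS at 6645 to 9336 bp.

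A stretch of the sta HAS is printed together with the peak beside snoRNA:Psi18S-301, since the DNA motif known for MSL binding on X is rich in GA. Both are on the plus strand, and capitals mark matches to GAGAGAGA or its reverse complement with up to 1 mismatch. The whole 2099 bp HAS held 2 such matches. Matches this loose are common: 48.8% of 500 bp windows centred on peaks held at least 1, as did 23.9% of windows within 250 bp of the TSS of all genes. They do not mark either peak as GA-rich.
sta HAS, chrX:1481532-1481651: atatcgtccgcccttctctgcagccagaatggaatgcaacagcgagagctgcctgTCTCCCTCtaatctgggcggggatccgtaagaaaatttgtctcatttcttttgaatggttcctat
Psi18S-301 peak, chr3R:20574712-20574861: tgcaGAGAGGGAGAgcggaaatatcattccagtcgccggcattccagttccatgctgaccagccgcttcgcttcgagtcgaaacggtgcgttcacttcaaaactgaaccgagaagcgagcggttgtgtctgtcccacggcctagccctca
snoRNA:Psi18S-301 was the 1 scored member of the 22 without a host. The 150 bp peak ended 45 bp upstream of it, and the nearest TSS of a gene that is no snoRNA, TFAM, lay 2223.5 bp from the midpoint of the peak. The other 21 genes without a host lay 2344 to 124613 bp from a peak.

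Few of these promoters and peaks held an exact GA repeat. The word GAGAGAGA on either strand within 250 bp of the canonical TSS was found in 3 of 92 hosts (3.26%), against 3.82% of all genes, and in 0 of 28 ribosomal protein hosts. In 500 bp windows centred on peaks it was found in 0 of the 28 peaks near a snoRNA gene (0 to 12.1%), in 4 of 47 peaks near a host TSS (8.51%, 3.36 to 19.9%) and in 12.8% of all 2508 peaks. With up to 1 mismatch the counts were 6 of 28 (21.4%, 10.2 to 39.5%), 16 of 47 (34.0%, 22.2 to 48.3%) and 48.8% of all peaks. The peak windows were examined after other results were known. CACACACA on either strand was found in 10 of 92 host promoters (10.9%), against 8.92% of all genes, and in 6 of 28 windows of peaks near a snoRNA gene (21.4%, 10.2 to 39.5%), against 29.3% of all peaks.

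Promoter words of housekeeping and translation genes were more frequent at hosts than over all genes, the latter mostly through ribosomal protein hosts. TATCGATA, the DNA replication-related element (DRE) bound by DREF, which reads the same on both strands, lay within 250 bp of the TSS in 20 of 92 hosts (21.7%, 14.5 to 31.2%), against 7.62% of all genes. CTTTT or CTTTC beginning within 10 bp of the TSS on the sense strand was found in 27 of 92 hosts (29.3%, 21.0 to 39.3%), against 7.32% of all genes. Most of these 27 hosts were ribosomal protein hosts (18 of 28, 64.3%) or Uhg hosts (3 of 7). The same start was found in 12 of 41 hosts with a peak (29.3%, 17.6 to 44.5%) and in 15 of 51 without (29.4%, 18.7 to 43.0%). The DRE was found in 7 of 41 hosts with a peak (17.1%, 8.53 to 31.3%) and in 13 of 51 without (25.5%, 15.5 to 38.9%). A match is a match of letters only and shows no bound factor.

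Distances to the nearest peak were also compared without a limit at 1 kb. The median was 4660 bp for snoRNA genes (95% interval of the median from order statistics 3795 to 6699 bp), 4209 bp for hosted and 24110 bp for other snoRNA genes (10818 to 53578 bp), against 16817 bp over all genes. For hosts it was 3130 bp (419 to 8981 bp), and for coding hosts 2271.5 bp, against 15670 bp over coding genes. On X snoRNA genes had a median of 2520 bp, against 6184 bp for X genes, and on autosomes 5644.5 bp, against 19061 bp. Of the 31 members on X, however, 14 lie in RpS5a and share their nearest peak, and the X median is the distance of 1 of these. The medians were shorter for snoRNA genes than for genes in general, while the shares within 1 kb were close. The interval treats genes as independent, whereas members of 1 host move together.

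At the 1 kb limit, the members just inside were Psi18S-1347b (961 bp), Psi18S-640a (971 bp) and Psi28S-3327c (995 bp). Those just outside were lola-a (1033 bp), Psi28S-1175b in RpS16 (1042 bp) and Psi28S-1837b in CG10576 (1044 bp), each in a host that also held scored members.

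Proteins of snoRNA particles, their assembly factors and other nucleolar proteins were examined as a list of 18 genes, all found in the annotation. A TSS peak was found at 3 of them (16.7%, 5.84 to 39.2%), against 16.2% of protein-coding genes. The peak of nop5, a core protein of box C/D particles that itself hosts a snoRNA gene, overlapped the TSS and measured 175 bp. That of hoip, the box C/D protein that binds the kink-turn, measured 209 bp and lay 346 bp away. That of Nopp140, a nucleolar and Cajal body protein, measured 194 bp and overlapped the TSS. None of the 4 box H/ACA core proteins had a TSS peak, with the nearest peak 11743 bp from Nop60B, 16481 bp from NHP2, 48829 bp from Gar1 and 60338 bp from Nop10. Fib, the methyltransferase of box C/D particles and also a host, lay 7268 bp from a peak.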

How the data were processed

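MSL2 ChIP of larvae was analysed from 3 peak lists that the authors deposited for the series as a whole. In the submitters' processing notes, bedtools, MACS2 2.1.1.20160309.0 and Bowtie2 2.3.0.1 are named beside the builds BDGP6 and dm6, in no stated role or order. The sources used here do not give the library, control, threshold or pooling behind a list, and the depth is unknown. The deposited score column of the autosomal list held 0 in every row and ranked no peak. The other values used, also as deposited, were start and end positions.

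Starts were made 1-based and repeated intervals were counted once. Of the autosomal peaks, 16 on other sequences were left out. Genes came from Ensembl release 115 (BDGP6, annotation 54) and bases from the RefSeq dm6 genome, and 0 peaks reached past a chromosome end. A hosted gene lay wholly inside a gene of another biotype on its strand, and the shortest such gene was its host (12 members had 2). Ribosomal protein genes, hosts or not, and Uhg hosts were taken by symbol. Distances run from a TSS to the nearest peak edge unless a midpoint is named, and a gene with several TSS takes the shortest. Calculations used Python 3.11.15, SciPy 1.17.1 and numpy 2.4.6. Scoring was tested on simulated data with planted peaks.

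No test was made: the lists hold no replicates, and members, gene lists and words were chosen with earlier results of these data known. The text names the scored members and hosts with a peak (2 hosts and their snoRNA genes are counted but not reported here by name), the hosts with most snoRNA genes, the members at the limit, those near an HAS and the list genes with a peak. Alternatives changed the window, the overlap rule, the peak lists, the peak width, the definition of a host, its TSS, and the words' window and mismatches.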

Additional observations from a re-analysis of the deposited data

How the results depend on the processing

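Of 46 alternatives over 11 results, 32 stayed within 1.5 times the reported count or within the interval of the reported share or median, and 14 moved. For snoRNA genes the count was 10 (3.72%) with a 500 bp window, 80 (29.7%) with 2 kb and 22 (8.18%) with the wider peaks of each list only. It was 24 of 109 when clusters of snoRNA genes within 2 kb were counted once. The count fell, but the share of clusters was higher than the 14.9% of single snoRNA genes and the 14.6% of all genes. No background of clusters is given. For hosted genes the count was 9, 79 and 22 with the first 3 of these alternatives, while all genes had 12.3%, 17.6% and 7.85%. The share of snoRNA genes was thus below that of all genes at 500 bp and above it at 2 kb. With wider peaks only, the other snoRNA genes fell to 0, hosts to 24 and the list of snoRNA particle and nucleolar proteins to 0. Coding hosts then had 28.0%, against 8.53% of coding genes. GAGAGAGA was in 0% of hosts within 100 bp and in 26.1% with up to 1 mismatch, against 23.9% of all genes. CACACACA was in 5.43% within 100 bp and in 40.2% with up to 1 mismatch, against 40.1% of all genes. Leaving out the HAS list, using midpoints, and the other definitions of a host or its TSS kept every result they were run on within those bounds. No paired analysis was possible because the peak lists hold no values of single libraries. The counts rest on 1 set of peaks with unknown threshold and depth, so a missing peak does not show that MSL2 was absent.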

Other observations

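Some hosts lay far from any peak of the lists. The nearest peak was 2133083 bp from the canonical TSS of RpL15, whose arm 3L held no peak beyond position 25134173 although the arm runs to 28110227. It was 368463 bp from RpL5 near the base of 2L and 328997 bp from RpS3A on chromosome 4. These 3 ribosomal protein hosts were singled out after their values were seen.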
